A study of Mus musculus with 12 samples.

Results

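Aes and Dvl3 are the pair of Wnt pathway genes among the 58 gene models measured in D1, a mouse cell line. Their members were all exon bins carrying either gene's name, or the name of its gene model, with repeated rows dropped. An exon bin is a stretch of exon between neighbouring exon boundaries of a gene's transcripts. This gave 31 bins of 926, with 10 in Aes and 21 in Dvl3. A list of 50 other Wnt pathway genes (receptors, ligands, the destruction complex, TCF factors and their co-factors) was looked up as well, and 0 of them had a gene model in the tables, so Aes and Dvl3 could not be set beside the rest of the pathway.

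The 12 samples were mixtures of sequencing reads made on a computer to test how alternative splicing is detected. Each used a common background of reads from an unstranded TruSeq library of D1 RNA, made from 1000 ng or from 100 ng of total RNA. To each background the submitters added reads of listed transcripts, drawn from another library, of which 20M, 40M or 80M reads were used as the source (M stands for 1e6). That library was either TruSeq, with 100 ng of RNA as input, or NuGENv2, with 2 ng. Each sample had 5 replicates; no label says that these came from separate cultures, so p-values measure the spread between these replicates, which may be technical. Every sample also held synthetic reads of even coverage from further lists of transcripts, and these lists differed between the 1000 ng and the 100 ng background. The Aes transcript uc007gin.1 was on the kit-read list of the 1000 ng background alone. Dvl3 had no transcript on a kit-read list: uc007ypx.1 and uc007ypw.1 were on a synthetic list of the 1000 ng background, and uc007ypv.1 on a synthetic list of the 100 ng background. A difference in either gene between the backgrounds therefore holds both the listed reads and any difference between the background libraries, and these cannot be told apart. The identity of the D1 line was not checked, because no marker list for it was used here.

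In canonical Wnt signalling a Wnt ligand binds Frizzled and LRP receptors, Dishevelled proteins are recruited to the receptor complex, and beta-catenin escapes degradation and joins TCF/LEF factors on DNA. Dvl3 encodes one of the Dishevelled proteins. Aes, now named Tle5 in RefSeq, encodes a short member of the Groucho/TLE family; the long members repress transcription with TCF/LEF factors, and the short member lacks their WD-repeat part. The genes thus act at opposite ends of the pathway, Dvl3 at the membrane and Aes in the nucleus.

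Aes lies on the plus strand of mouse chromosome 10 at chr10:81022239-81029107 in the NCBIM37 (mm9) genome with GENCODE M1 annotation. Its model joins 3 transcripts, uc007gin.1, uc007gim.1 and uc011xjj.1. Bins were placed where their width equalled that of an annotated exon. Of the 31 bins of both genes 9 equalled none: E001 of Aes was left unplaced (it precedes E002 in the numbering), E008 of Aes was placed at a splice acceptor, and E009 and E010 of Aes and E003, E007, E009, E011 and E020 of Dvl3 were placed by inference, directly after the bin before them. E002 at chr10:81022239-81022413 and E003 at chr10:81023964-81024061 are 5′ exons, and E004 to E007 are short coding exons between chr10:81026840 and chr10:81028111. E008 to E010 are read here as parts of the last exon. E009 at chr10:81028220-81028478 holds the stop codon. E010, so placed at chr10:81028479-81029109, lies in the 3′ untranslated region, but its end is past the annotated end of the gene at chr10:81029107. The 3-base bin E008 is shown because it has the form of a tandem splice acceptor: its bases, in capitals, follow an AG and themselves end in AG.
Aes E008 with 30 bases on each side, chr10:81028187-81028249, plus strand: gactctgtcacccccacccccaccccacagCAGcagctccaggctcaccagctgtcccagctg

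Dvl3 lies on the plus strand of chromosome 16 at chr16:20517055-20532593 (NCBIM37), and its model joins uc007ypx.1, uc007ypw.1 and uc007ypv.1. Of its 21 bins, 4 (E003, E007, E009 and E011) are intronic in the coding transcripts and exonic only in an annotated retained-intron transcript without a coding sequence, ENSMUST00000169552.1, which spans chr16:20517259-20525392. The remaining bins up to E010 are coding exons shared with that transcript, although E001 begins upstream of its start and is shared in part. E012 to E019 are coding exons that it lacks. E021 matched an annotated last exon, and E020, which equalled no annotated exon, is read here as another end. The structures of the UCSC transcripts themselves were not used here, so which bins belong to which listed transcript is not stated. The 4 exon-to-intron junctions are shown because the Dvl3 results turn on the bins that follow them; capitals mark the last 20 bases of the exon and lower case the first 20 bases of the retained-intron bin, each of which starts with the GT of a splice donor.
Dvl3 E002 into E003, chr16:20522379-20522418: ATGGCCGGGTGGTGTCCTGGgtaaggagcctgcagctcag
Dvl3 E006 into E007, chr16:20524129-20524168: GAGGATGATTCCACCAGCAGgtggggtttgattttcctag
Dvl3 E008 into E009, chr16:20524399-20524438: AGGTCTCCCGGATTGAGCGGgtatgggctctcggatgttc
Dvl3 E010 into E011, chr16:20524642-20524681: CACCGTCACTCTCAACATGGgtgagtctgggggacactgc

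Values are given on 3 scales. Reads are whole reads counted in a bin. Reads per base divide these by the bin's width minus 1, the divisor the tables use; for the 3-base bin E008 of Aes this is 2. FPKM equivalents divide reads per kilobase by a library size estimated from all bins, in units of 1e6 reads. Reads in all bins came to 347941 to 593002 per replicate in the 1000 ng background, and to 237258 to 492142 in the 100 ng background outside the TruSeq 20M sample. The 100 ng TruSeq 20M sample stood apart at 1101798 to 1281559 reads per replicate, and the results from its table are given separately. The 3-base bin E008 of Aes held 137 to 656 reads per base with 80M TruSeq reads, more than any other Aes bin. A bin of 3 bases cannot contain a whole read, so reads were counted where they overlap a bin. Sums over bins may count a read more than once, and per-base values of very short bins are inflated.

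In Aes, the reads added by the kit were gained in the 1000 ng background alone, and those from TruSeq fell almost wholly outside its 4 middle exons, while part of those from NuGENv2 fell on them. Between 20M and 80M source reads, Aes gained 8000 reads in the 1000 ng background from TruSeq and 1046 reads from NuGENv2, a ratio of 7.65. The gain was the same number in all 5 replicates. It has no spread between replicates and is a description with no test. With 20M to 40M the gain was 2695 reads for TruSeq and 342 for NuGENv2, and with 40M to 80M it was 5305 for TruSeq and 704 for NuGENv2. In the 100 ng background, which lists no kit reads of Aes, all 10 bins had identical reads in every sample except the one with 20M TruSeq reads.

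Reads from the TruSeq and NuGENv2 sources fell on different parts of Aes. Kit and RNA input changed together, with 100 ng for TruSeq and 2 ng for NuGENv2, so their effects cannot be told apart. Of the 8000 TruSeq reads, 93.0% fell in the last exon (E008 to E010), 6.64% in E001 to E003 and 0.4% in the 4 middle exons E004 to E007. Of the 1046 NuGENv2 reads, 76.2% fell in the last exon, 6.50% in E001 to E003 and 17.3% in the middle exons. The middle exons therefore received 32 reads from TruSeq and 181 from NuGENv2, the opposite order to the gene as a whole. Within them, E006 gained 1 read from TruSeq against 54 from NuGENv2, and E004 gained 3 against 44. The 3′ untranslated bin E010 took 5242 reads from TruSeq and 488 from NuGENv2. E009, which holds the stop codon, took 2082 from TruSeq and 295 from NuGENv2. Per base, the last exon gained 8.36 reads from TruSeq and the middle exons 0.132, while with NuGENv2 they gained 0.896 and 0.745. TruSeq gain per base was thus concentrated in the last exon, and NuGENv2 gain per base differed less between the last exon and the middle. The middle bins were 45 to 75 bases wide, against 259 and 631 for E009 and E010. Counting by overlap inflates per-base values of short bins. How level the NuGENv2 gain was can therefore not be read from these values.

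**Figure D1:**
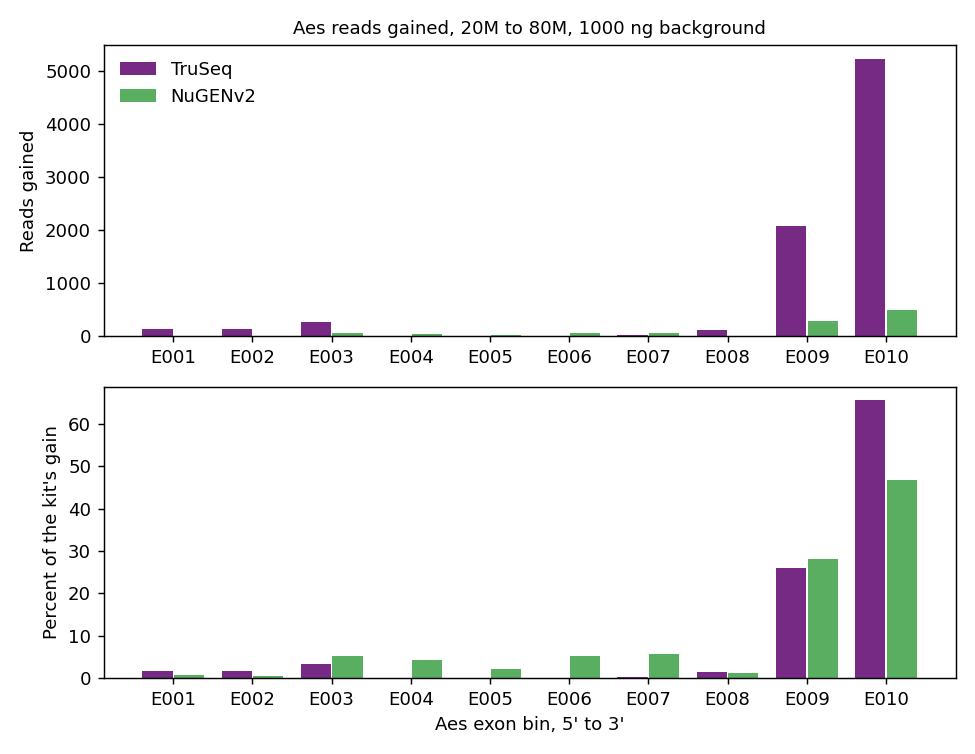
Reads of Aes gained between 20M and 80M source reads in the 1000 ng background, by exon bin in 5′ to 3′ order, for TruSeq and NuGENv2; the upper panel gives reads and the lower panel the percent of each kit's own gain, and there is no error bar because every replicate gained the same number. E010 gained 5242 reads from TruSeq and 488 from NuGENv2, whereas E004 to E007 gained more from NuGENv2 and held 0.4% of the TruSeq gain and 17.3% of the NuGENv2 gain.

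At equal depth the same contrast held. With 80M source reads, Aes in the 1000 ng background had 8760 more reads in the last exon and 186 fewer in the middle exons with TruSeq than with NuGENv2. With 40M it had 4394 more in the last exon and 89 fewer in the middle exons, and with 20M 2120 more and 37 fewer.

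The level of the whole Aes model followed these gains. As the same number of reads was gained in every 1000 ng replicate, the tests of Aes below compare groups set apart in part by construction. With 80M TruSeq reads Aes had 19453, 27259, 18119, 19143 and 17064 reads in the 5 replicates of the 1000 ng background, against 5725, 4720, 12535, 11018 and 4618 reads in the 100 ng background. Scaled by the estimated library size this was 513, 425, 524, 496 and 541 FPKM equivalents in the 1000 ng background, against 219, 196, 248, 251.9 and 189 in the 100 ng background. The groups did not overlap on either scale, and replicate 2 of the 1000 ng background, which had the most reads, was the lowest of its group after scaling. The means were 499.6 ± 45.0 and 221 ± 28.8 FPKM equivalents (SD, n = 5 each), a log2 ratio of 1.18 ± 0.10 (SE; limma, adjusted p = 8.47e-06). Among the 58 model totals of that comparison, 41.4% were called in either direction.

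With 40M TruSeq reads Aes averaged 355 ± 16.3 FPKM equivalents with the 1000 ng background and 219 ± 26.1 with the 100 ng background (SD, n = 5 each). The log2 fold change was 0.70 ± 0.08 (SE; limma, adjusted p = 9.88e-05), where 39.7% of models were called. With 20M TruSeq reads the means were 212 ± 8.66 and 204 ± 1.98, a log2 ratio of 0.05 that did not pass the test (limma, adjusted p = 0.126), where 79.3% of models were called. That comparison uses the 100 ng sample that stands apart, in which Aes held 61340 to 69257 reads per replicate against 4618 to 12535 in the other 100 ng samples. On other scalings its sign turned: the log2 fold change was -0.89 under quantile normalization and -0.60 with size factors from models without kit reads.

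With NuGENv2 the Aes total did not pass the test at any depth. It averaged 218 ± 11.6 FPKM equivalents with the 1000 ng background and 214 ± 20.8 with the 100 ng background with 20M reads, 229 ± 10.6 and 215 ± 22.3 with 40M, and 254 ± 9.12 and 220 ± 26.5 with 80M (SD, n = 5 each). The limma adjusted p was 0.804, 0.515 and 0.0834 in that order of depth, and the log2 fold change was 0.03, 0.09 and 0.22. Called models made up 5.17%, 17.2% and 24.1% of the 58 totals at these depths. In order of level, the 100 ng samples and the 1000 ng samples with 20M reads or with 40M NuGENv2 reads lay between 204 and 229, each overlapping its neighbour in range. Above them in mean came the 1000 ng samples with 80M NuGENv2, 40M TruSeq and 80M TruSeq reads, none overlapping its neighbour in this order. The 1000 ng sample with 80M NuGENv2 reads, at 245 to 266, still overlapped 100 ng samples further down. Those with 80M reads reached 248 (NuGENv2) and 251.9 (TruSeq).

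**Figure D2:**
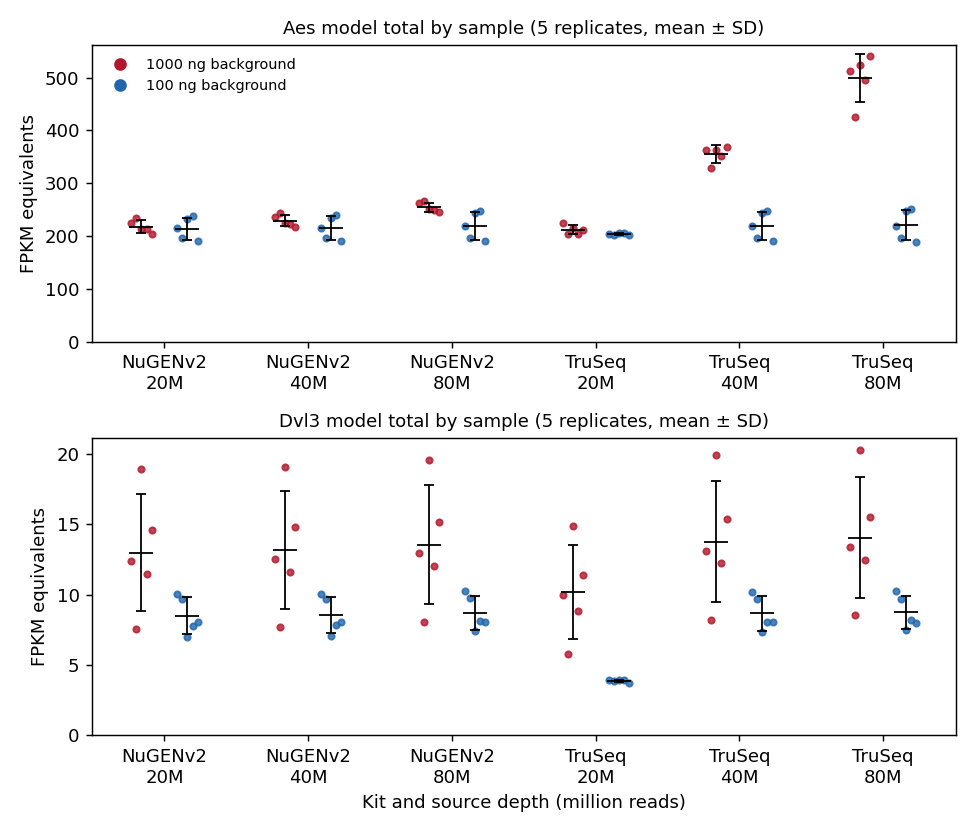
Model totals of Aes (upper) and Dvl3 (lower) in FPKM equivalents for each kit and source depth, with the 1000 ng background left of the 100 ng background; points are the 5 replicates and bars the mean ± SD. Aes stands at 499.6 ± 45.0 in the 1000 ng background with 80M TruSeq reads, while Dvl3 has the same order of replicates in the 1000 ng background of every table.

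Bin by bin, the Aes difference between backgrounds with 80M TruSeq reads lay largely where the reads had been gained. The gains and the fold changes rest on the same added reads, so neither is separate evidence for the other. E008 was an exception, with 113 reads gained and no call. Of 10 Aes bins, 5 rose and 0 fell in the 1000 ng relative to the 100 ng background (limma, adjusted p under 0.05), where 7.9% of all 924 bins tested were called higher and 13.4% lower in the 1000 ng background. E010 measured 561, 401, 599.7, 552 and 642 FPKM equivalents in the 1000 ng background, against 122, 112, 151, 147 and 115 in the 100 ng background. The lowest 1000 ng replicate stood above the highest 100 ng replicate, and the log2 fold change was 2.08 ± 0.15 (SE; limma, adjusted p = 1.39e-05). E009 averaged 632 ± 76.3 with the 1000 ng background and 220 ± 33.5 with the 100 ng background (SD, n = 5 each), a log2 ratio of 1.52. The 5′ bins E001, E002 and E003 had log2 fold changes of 1.35, 1.31 and 0.78. E003, the exon that precedes the middle ones, averaged 420 ± 6.55 FPKM equivalents with the 1000 ng background and 245 ± 20.3 with the 100 ng background (SD, n = 5 each).

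The middle exons E004 to E007, which TruSeq reads scarcely reached, had log2 fold changes of 0.06 to 0.15 with limma adjusted p of 0.513 to 0.786. Summed over those 4 bins, Aes had 3892, 7018, 3231, 3663 and 2862 reads in the 1000 ng background, against 2376, 1976, 5255, 4507 and 1940 in the 100 ng background, and the groups overlapped. Scaled, this was 611 ± 47.5 and 572 ± 70.9 FPKM equivalents (SD, n = 5 each). The tandem-acceptor bin E008 had a log2 ratio of 0.40 and did not pass (limma, adjusted p = 0.0856). The median over the 10 Aes bins was 0.59 on the log2 scale, beside 0.04 over all bins tested.

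**Figure D3:**
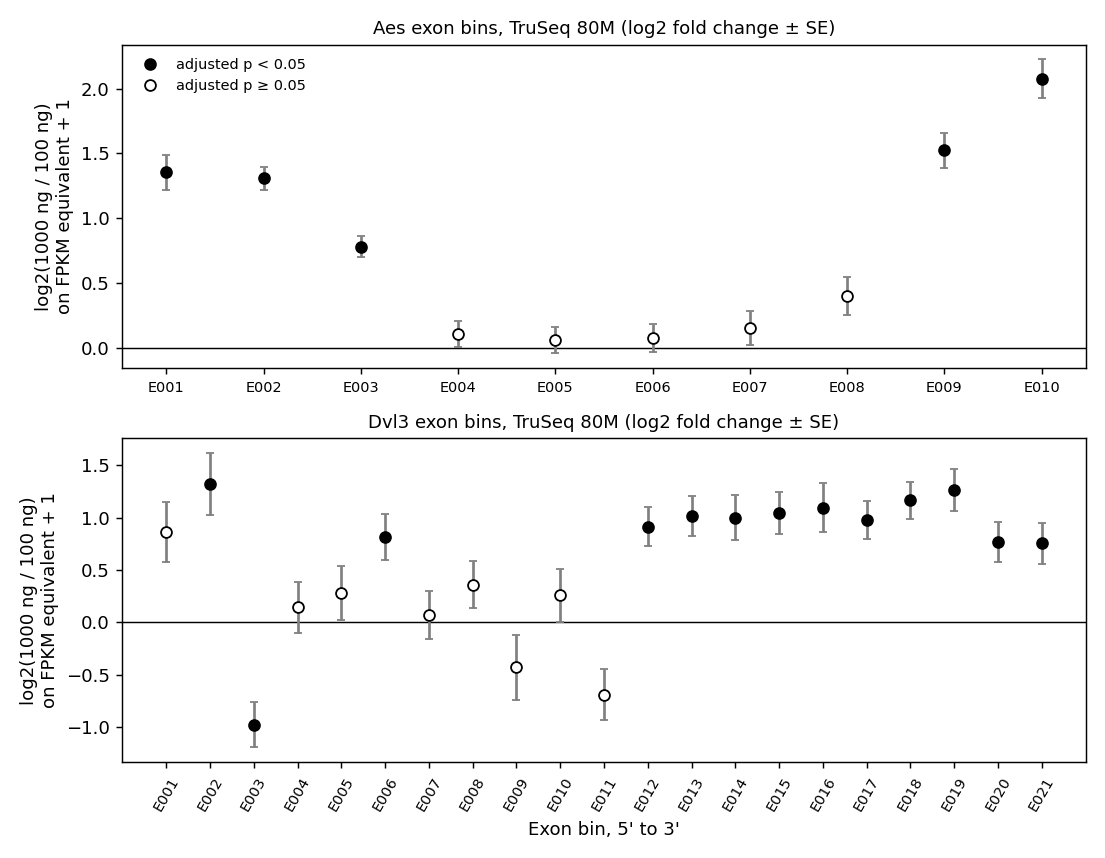
Log2 fold change (1000 ng over 100 ng background, ± SE) of each Aes bin (upper) and each Dvl3 bin (lower) with 80M TruSeq reads, in 5′ to 3′ order; filled points passed limma at an adjusted p under 0.05. In Aes E001 to E003 lie at 0.78 to 1.35 and E010 at 2.08, while E004 to E007 lie at 0.06 to 0.15; in Dvl3 E003 is the called bin below 0, at -0.98.

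Across the other tables, the Aes bins called were E001, E002, E003, E009 and E010 again with 40M TruSeq reads, E001 and E003 with 80M NuGENv2 reads, E001 with 40M NuGENv2 reads and 0 bins with 20M NuGENv2 reads. Background percentages higher in the 1000 ng group were 6.39%, 4.98%, 2.16% and 1.19%. With 20M NuGENv2 reads, E001 came closest of the Aes bins, at a limma adjusted p of 0.0753. With 20M TruSeq reads, 3 Aes bins were higher (E001, E009, E010) and 5 lower (E004 to E008) in the 1000 ng background on the scaled values. There 32.6% of all bins were called higher and 29.9% lower. This comparison holds the sample that stands apart. In reads, all 10 Aes bins were lower in the 1000 ng background without overlap, which was not counted over all genes.

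The profile of Aes within the model shifted with the added reads. With 80M TruSeq reads E010 held 45.6%, 39.3%, 47.7%, 46.4% and 49.5% of Aes reads in the 1000 ng background, against 23.2%, 23.8%, 25.4%, 24.2% and 25.3% in the 100 ng background. The middle exons together held 19.9% ± 3.49 with the 1000 ng background and 41.6% ± 0.454 with the 100 ng background (SD, n = 5 each). For both, no 1000 ng replicate overlapped a 100 ng replicate. In an exact two-sided permutation test over the 5 and 5 replicates, whose smallest p is 0.00794, 8 of 10 Aes bins had that p and an adjusted p of 0.0356, where 22.3% of all bins did. E009 and E010 took a larger share in the 1000 ng background and E003 to E008 a smaller one. limma's diffSplice test of bin usage called 4 Aes bins higher (E001, E002, E009, E010) and 5 lower (E004 to E008) relative to the rest of the model in the 1000 ng background, where 19.2% of all bins were called. With 40M TruSeq reads the exact test on shares also gave its smallest p to 8 Aes bins, where 16.9% of all bins had it, and diffSplice called 4 bins higher and 4 lower, where 13.9% were called. With 20M TruSeq reads 8 Aes bins had the smallest p, where 30.4% of all bins had it and 35.4% passed after adjustment, and diffSplice called 4 bins higher and 5 lower, where 18.1% were called.

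With NuGENv2 the Aes profile stayed closer to that of the 100 ng background. The middle exons held 41.4%, 40.6% and 38.9% of Aes reads in the 1000 ng background with 20M, 40M and 80M reads, beside 41.6% in the 100 ng background at all 3 depths. With TruSeq they held 33.1%, 27.0% and 19.9% in the 1000 ng background at those depths. diffSplice called 1 Aes bin, E001, at each NuGENv2 depth, where 3.9%, 5.52% and 10.8% of all bins were called.

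The extra reads of the 100 ng TruSeq 20M sample had another profile. Relative to the NuGENv2 20M sample of that background, Aes held 56722 more reads in each replicate. Of these, 41.7% lay in the middle exons and 48.1% in the last exon, beside 41.6% and 48.1% of Aes reads in the other 100 ng samples, and beside 0.4% and 93.0% of the TruSeq reads gained in the 1000 ng background. E010 held 13931 of them and E007 6484.

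For Dvl3, which is on synthetic lists and on no kit-read list, reads did not change with kit or depth. All 21 bins had identical reads in all 6 samples of the 1000 ng background, and in all samples of the 100 ng background except that with 20M TruSeq reads. Dvl3 had 1791, 1933, 2470, 1695 and 1726 reads in the 5 replicates of the 1000 ng background, against 941, 822, 1332, 1265 and 689 in the 100 ng background. Every 1000 ng replicate had more Dvl3 reads than every 100 ng replicate. Different Dvl3 transcripts were on the synthetic lists of the 1000 ng and the 100 ng background. The tests of Dvl3 below, of levels, bin usage and shares, thus also compare groups set apart in part by construction. Since the same counts stand in several tables, differences between tables in the values below come from scaling and from the other genes tested, and the tables are not repeats of each other.

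Scaled by the estimated library size, the Dvl3 groups overlapped. With 80M TruSeq reads Dvl3 measured 13.4, 8.56, 20.3, 12.5 and 15.6 FPKM equivalents in the 1000 ng background, against 10.3, 9.72, 7.49, 8.23 and 8.02 in the 100 ng background. Replicate 2 of the 1000 ng background lay inside the 100 ng range. Its size factor was 1.81, against 0.892 to 1.09 in the other 4 replicates of that background, while its Dvl3 reads were within the range of the other 4. The factor did not follow reads in all bins. Replicate 2 had 593002 of these, and replicate 3, with a factor of 0.977, had 555289. The overlap thus depends on this factor. The means were 14.1 ± 4.32 and 8.74 ± 1.18 FPKM equivalents (SD, n = 5 each), a log2 ratio of 0.59 ± 0.19 (SE; limma, adjusted p = 0.0342). By the exact permutation test the difference had an adjusted p of 0.0575 and did not pass, and 7 of the 10 fits that left out 1 replicate did not pass either.

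With 40M TruSeq reads the log2 fold change of Dvl3 was 0.57 (limma, adjusted p = 0.0463), and the exact test gave an adjusted p of 0.0600; 9 of the 10 fits that left out 1 replicate did not pass. With NuGENv2 it was 0.51, 0.52 and 0.54 at 20M, 40M and 80M, and did not pass (limma, adjusted p = 0.137, 0.117 and 0.0734). Without replicate 2 of the 1000 ng background it passed in all 6 tables, at 0.68 to 0.74 in the 5 tables other than TruSeq 20M. With 20M TruSeq reads Dvl3 averaged 10.2 ± 3.35 FPKM equivalents with the 1000 ng background and 3.87 ± 0.0883 with the 100 ng background (SD, n = 5 each), a log2 ratio of 1.15 (limma, adjusted p = 0.000577). In reads the order there was the reverse, with 1695 to 2470 in the 1000 ng background and 3988 to 4631 in the 100 ng sample that stands apart. In level, that 100 ng sample was lowest and did not overlap the others; the other 11 samples ran from 8.52 to 14.1, each overlapping its neighbour.

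By bin with 80M TruSeq reads, 12 of 21 Dvl3 bins rose and 1 fell in the 1000 ng relative to the 100 ng background (limma, adjusted p under 0.05), beside 7.9% and 13.4% of all bins. The median over the 21 bins was 0.81 on the log2 scale, beside 0.04 over all bins tested. E002, a 5′ coding exon of 70 bases, measured 54.3, 28.0, 100.8, 53.3 and 70.1 FPKM equivalents in the 1000 ng background, against 24.3, 29.2, 19.9, 19.5 and 18.8 in the 100 ng background. It had the largest log2 fold change of the Dvl3 bins, 1.32 ± 0.30 (SE; limma, adjusted p = 0.00935), although replicate 2 of the 1000 ng background overlapped the 100 ng group. Only its neighbour E003 was called lower.

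The coding exons E012 to E019, which the retained-intron transcript lacks, all passed the test, at log2 fold changes of 0.91 to 1.27. E019, the Dvl3 bin with most reads, had 208, 215, 286, 186 and 203 reads in the 1000 ng background, against 55, 48, 108, 86 and 57 in the 100 ng background. In FPKM equivalents it averaged 20.9 ± 6.78 with the 1000 ng background and 7.77 ± 0.534 with the 100 ng background (SD, n = 5 each), a log2 ratio of 1.27 (limma, adjusted p = 0.00106) with no overlap between the groups. E018, E016, E015 and E013 followed at 1.16, 1.10, 1.04 and 1.02. E013, for example, averaged 40.3 ± 12.4 FPKM equivalents with the 1000 ng background and 18.8 ± 1.37 with the 100 ng background (SD, n = 5 each). The end bins E020 and E021 also passed, at 0.77 and 0.75. Among the 5′ coding exons apart from E002, E006 passed at 0.81, E001 had 0.86 (limma, adjusted p = 0.0634), and E004, E005, E008 and E010 had 0.14 to 0.36 and did not pass.

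The 4 intron bins of Dvl3, singled out here after their values were seen, had the lowest log2 fold changes of its 21 bins. E003, the first 1084 bases of intron in the model, had 51, 35, 49, 39 and 26 reads in the 1000 ng background, against 104, 86, 89, 106 and 51 in the 100 ng background. Replicate 1 of the 1000 ng background equalled replicate 5 of the 100 ng background in reads. Scaled, E003 measured 1.88, 0.761, 1.98, 1.41 and 1.15 FPKM equivalents in the 1000 ng background and 5.56, 4.99, 2.46, 3.38 and 2.91 in the 100 ng background, without overlap. Its log2 fold change was -0.98 ± 0.22 (SE; limma, adjusted p = 0.00813). E011 had -0.69 and E009 -0.43, and neither passed (limma, adjusted p = 0.0800 and 0.445); E007 had 0.07.

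As shares of the model, the 4 intron bins held 9.38%, 7.19%, 8.02%, 8.91% and 7.24% of Dvl3 reads in the 1000 ng background, against 27.8%, 26.4%, 16.6%, 21.3% and 17.9% in the 100 ng background. The highest 1000 ng replicate was below the lowest 100 ng replicate. These shares need no scaling between libraries, and they were the same in every table except for the 100 ng group of TruSeq 20M. E003 alone held 2.09% ± 0.512 with the 1000 ng background and 8.80% ± 1.90 with the 100 ng background (SD, n = 5 each). In reads rather than shares, the intron bins had 125 to 198 reads in the 1000 ng background and 123 to 270 in the 100 ng background, which overlap, while E012 to E019 had 752 to 1105 in the 1000 ng background and 220 to 512 in the 100 ng background, which do not.

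**Figure D4:**
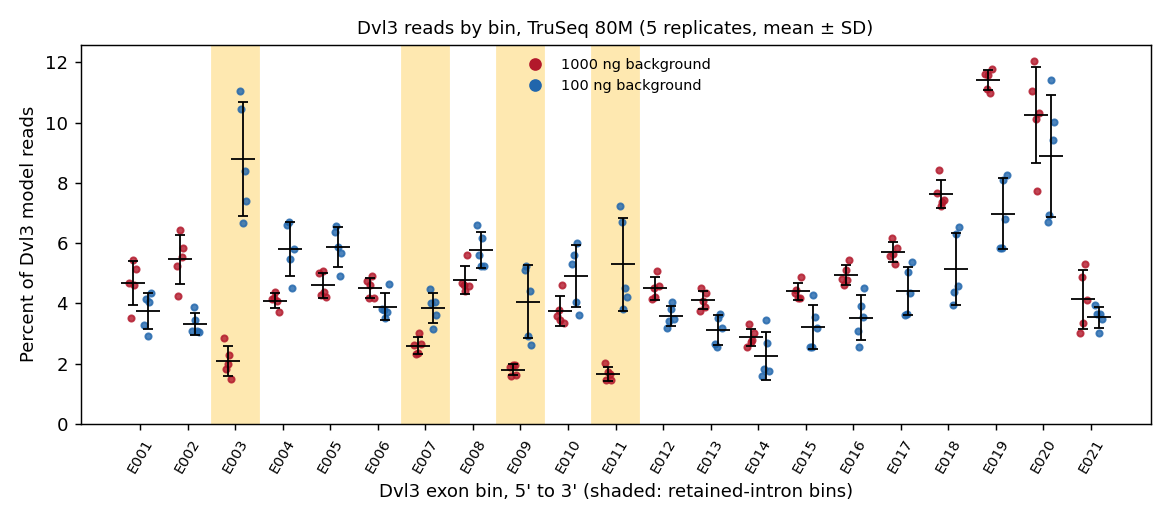
Percent of Dvl3 reads in each bin with 80M TruSeq reads, in 5′ to 3′ order, with the 1000 ng background left of the 100 ng background; points are 5 replicates, bars the mean ± SD, and shading marks the 4 retained-intron bins. In E003 the groups stand at 2.09% and 8.80%, and in E019 at 11.4% and 6.97%.

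In the exact permutation test on shares, 11 of 21 Dvl3 bins had the smallest p of 0.00794 with 80M TruSeq reads, with an adjusted p of 0.0356, where 22.3% of all bins did. All 4 intron bins and the exon bin E004 were lower in the 1000 ng background, and E002, E012, E013, E016, E018 and E019 higher. The same 11 bins had that p in the 3 NuGENv2 tables, whose reads are identical, but 0 bins of any gene passed the adjusted threshold there; 8.22%, 11.1% and 15% of all bins had the smallest p with 20M, 40M and 80M NuGENv2 reads. diffSplice called E003, E009 and E011 lower and E002 and E019 higher relative to the rest of the model in the 1000 ng background with 80M TruSeq reads, 5 of 21 bins where 19.2% of all bins were called. The 3 intron bins were called lower in every table but TruSeq 20M, where 1 of them, E003, was called. Over all bins the called share was 3.9%, 5.52% and 10.8% with 20M, 40M and 80M NuGENv2 reads, and 18.1% and 13.9% with 20M and 40M TruSeq reads.

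In counts of bins called by limma, Dvl3 had 4 higher and 0 lower with 20M NuGENv2 reads, 8 and 1 with 40M, 11 and 1 with 80M, and 12 and 1 with 40M TruSeq reads. The background of bins higher in the 1000 ng group was 1.19%, 2.16%, 4.98% and 6.39%, and of bins lower 0.758%, 2.92%, 6.82% and 10.8%. The bin called lower was E003 each time. With 20M TruSeq reads all 21 Dvl3 bins were higher in the 1000 ng background, E003 included at 0.37, where 32.6% of all bins were called higher.

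The 100 ng TruSeq 20M sample held 3299 more Dvl3 reads in each replicate than the other 100 ng samples. Of these, 3.70% lay in the intron bins and 48.2% in E012 to E019, beside 22.0% and 32.2% of Dvl3 reads in the other 100 ng samples, and beside 8.15% and 45.6% in the 1000 ng background. With those reads the intron share in that sample was 7.88%.

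By the root mean square distance of centred log2 model totals over the 12 samples, the 100 ng TruSeq 20M sample included, the models nearest to Aes were Gmfg (0.225), Saal1 (0.231) and Hdh (0.271), with a median of 0.491 over all models. Gmfg and Saal1 were on the kit-read list of the 1000 ng background, as Aes is, and Hdh was on a synthetic list of that background. Without that sample Gmfg (0.230) and Saal1 (0.240) were still nearest, and Hdh ranked 5 (0.283; median 0.392). The nearest to Dvl3 were Bbs9 (0.0643), B3gat3 (0.192) and Atg16l1 (0.233), with a median of 0.470. Bbs9 and B3gat3 were on the same kind of synthetic list of the 1000 ng background as Dvl3, and Atg16l1 was on the other kind of synthetic list in both backgrounds. Without that sample Bbs9 (0.00891) was still nearest, AK005305 ranked 2 (0.0419), B3gat3 ranked 3 (0.0544) and Atg16l1 ranked 7 (0.199, with a median of 0.357). Dvl3 reads outside that sample did not change within a background, so its distances there hold mainly the difference between backgrounds. The distances without that sample were added after the values were seen. All these distances rest on samples that share background reads, and carry no test.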

How the data were processed

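The 6 tables, 1 for each kit and depth, hold 1744 rows and 10 columns, 5 for each background. Per the submitters' processing notes the tools were STAR and Cuffdiff and the genome build mm9, without versions or roles. The rule for assigning reads to exon bins was not given in the sources used here. Values deposited by the authors are a coverage signal: in 9 columns, whole reads divided by bin width minus 1, and in the fifth 100 ng column divided further by a library total in units of 1e6 reads. All columns of per-sample values were mapped to a sample. Widths and totals were inferred from the values, and whole reads were recovered for 100.0% of values (tolerance 0.001). Of 926 bins, 925 had finite values. The tests had been planned for FPKM and were run on a rescaled unit instead.

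Reads were divided by median-of-ratios size factors, set to FPKM equivalents by the fifth 100 ng column's library total. limma 3.58.1 (R 4.3.3) was fitted to log2(FPKM equivalent + 1), a scale that understates the change of low values, in each table separately, 5 against 5 columns, two-sided, with Benjamini-Hochberg adjustment over all bins or all 58 models and a threshold of 0.05. Bins needed a mean of 1 unless their model held a listed transcript. diffSplice tested bin usage, and exact two-sided permutation tests used model totals and bin shares. The limma fit of bins was also run on simulated data with known changes, while the other tests were not checked in this way. Dvl3 bins held 12 to 286 reads per replicate outside the 100 ng TruSeq 20M sample, which limits precision there.

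Given in full were both totals and, with 80M TruSeq reads, the 6 bins of each gene with the largest absolute log2 fold change, the bin with most reads and any bin called against the direction of most. The members and lists were chosen with earlier results of these data known. Alternatives were another pseudocount (0.1), no filter, the values as deposited without the fifth 100 ng column, quantile normalization, size factors from models without kit reads, leaving out each column, and a replicate block.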

Additional observations from a re-analysis of the deposited data

Results flagged for a closer look

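Of 76 groups of 5 replicates looked at for a sample far from the rest, 1 was flagged, where chance flags about 1 in 20. In Aes bin E001 of the 1000 ng background with 80M TruSeq reads, replicate 2 measured 125 FPKM equivalents, below the other 4 replicates at 137 to 141. The gap to its nearest neighbour was 0.735 of the whole range. The 100 ng replicates of that bin lay at 39.0 to 65.0, so the flagged replicate still stood above all of them.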

How the results depend on the processing

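The TruSeq 80M call of Aes and the direction of both totals outside TruSeq 20M held under every alternative run, except that Aes with 20M NuGENv2 reads ranged from -0.010 to 0.068 (log2 fold change) when 1 replicate was left out. With 20M TruSeq reads the values as deposited gave -2.32 for Aes and -0.42 for Dvl3, and Aes also turned to -0.89 under quantile normalization and -0.60 with size factors from models without kit reads; the cause was not tested. With 40M TruSeq reads Aes kept its direction but not its call with the values as deposited (0.77) and under quantile normalization (0.69), and Dvl3 lost it with the values as deposited (0.18). Quantile normalization gave Dvl3 a call with 80M NuGENv2 reads (0.68). The exact permutation test left Dvl3 uncalled with 40M and 80M TruSeq reads (0.57 and 0.59).

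Leaving out 1 replicate changed the call of some Dvl3 totals: the log2 fold change ranged from 0.37 to 0.68 with 20M, 0.38 to 0.69 with 40M and 0.41 to 0.70 with 80M NuGENv2 reads, and from 0.43 to 0.73 with 40M and 0.45 to 0.74 with 80M TruSeq reads. Bins called then ranged, for Aes, from 0 to 1 with 40M and 0 to 3 with 80M NuGENv2 reads (1 and 2 with all replicates), and for Dvl3 from 0 to 10 with 20M and 2 to 12 with 40M NuGENv2 reads (4 and 9 with all replicates). Here and for the alternatives below, the share of all bins called under the same setting was not computed. Whether these counts moved with the rest of the bins is therefore not known.

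With the values as deposited, 0 Aes bins were called with 40M and 80M NuGENv2 and with 40M TruSeq reads (1, 2 and 5 on the scaled values), and 0, 0 and 6 Dvl3 bins with 20M, 40M and 80M NuGENv2 and 7 with 40M TruSeq reads (4, 9, 12 and 13 on the scaled values). Quantile normalization and size factors from models without kit reads each gave 0 Aes bins with 40M and 80M NuGENv2 reads, and those size factors gave 9 Dvl3 bins with 20M NuGENv2 reads.

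Columns of the same number did not pair across backgrounds: the correlation of their deviations was -0.38 to 0.091, and 0 of 30 columns correlated best with their own number. The 30 are the same 5 column numbers seen in 6 tables that share background reads, so they are not independent checks. With a replicate block, Dvl3 was not called with 40M (0.57, limma adjusted p = 0.136) or 80M TruSeq reads (0.59, limma adjusted p = 0.0996). The block gave 0 Aes bins with 40M and 80M NuGENv2 reads and 0, 0 and 7 Dvl3 bins with 20M, 40M and 80M NuGENv2 and 8 with 40M TruSeq reads. Tests here cover the spread of these 5 columns; Dvl3 bins hold few reads.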
